A study of Mus musculus with 8 samples.

Results

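This account covers 10 genes of bone morphogenetic protein (BMP) signalling in neurons of the mouse stellate ganglion: the secreted antagonists Fst and Nbl1, the receptors Bmpr1a, Bmpr1b, Bmpr2 and Acvr1, and the target genes Id1, Id2, Id3 and Id4. The genes were chosen by name, with their pattern over the neuronal subtypes already known, and all 10 are among the 19224 genes of the deposited table. Their levels by subtype are therefore given as a description without a test. BMPs are secreted ligands that bring together type I receptors (Bmpr1a, Bmpr1b, Acvr1) and type II receptors (Bmpr2). The activated receptors phosphorylate SMAD proteins, which enter the nucleus and induce the Id genes. Id proteins lack a DNA-binding region, pair with basic helix-loop-helix factors and hold them off DNA. BMPs released near the dorsal aorta induce the sympathetic lineage in the embryo, and Fst and Nbl1 encode extracellular proteins that bind ligands of this family.

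The stellate ganglion holds the sympathetic neurons that reach the heart and the forelimb. The cells came from C57BL6/J mice aged 8 to 10 weeks, all in 1 condition, each given an adeno-associated virus with GFP in the heart and another with tdTomato in the front paws, so no mice without virus are compared. The virus marks only those neurons whose endings took it up and carried it back to the cell body. The methods describe left and right ganglia combined for dissociation and do not say whether those of different mice were kept apart. A mouse here means a library with a mouse name, and libraries may not be fully independent animals. The spread between libraries measures variation that may in part be technical. Single cells were captured with the 10x Genomics system, which counts RNA molecules by unique molecular identifiers (UMIs). The table holds 1303 neurons in 8 subtypes, found by clustering of the same cells and named NA1a, NA1b, NA1c, NA2, NA3, Ach1, Ach2 and Glut. Of the mouse names, 5 fit 1 sample each and are replicates 1 to 5, with 1002 neurons and 916296 to 1196621 UMIs per mouse. The names of the remaining 3 mice, with 301 neurons, can be read either as a sample title or as part of a sample description. With the other 5 samples already taken, these 3 mice are left with the samples of batch 1. They were not assigned sample by sample here, although this was open by elimination, and they enter only pooled values. A level is the mean over neurons of UMIs per 10000 UMIs of the neuron, given for a mouse with at least 10 neurons of a subtype. UMIs come from the 3′ end of an RNA and their capture differs between genes, so levels of different genes are listed as measured and not compared as amounts. The 6 neuronal marker genes Snap25, Syt1, Prph, Pcsk1n, Dbh and Th were found in all 8 subtypes, at a summed pooled level of 48.1 UMIs per 10000 in NA3 and of 85.4 to 120.4 elsewhere.

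In these libraries, 21 cell barcodes occurred in 2 to 5 libraries of replicates 1 to 5. They belong to 73 neurons, of which 55 are NA2, 15 Ach2 and 3 Glut, and 20 of the 21 barcodes carry 1 subtype throughout. Such neurons may not be separate cells, so values that rest on NA2 are given with and without them. Without them NA2 keeps 10 or more neurons in 4 of 5 mice. The 55 NA2 neurons with a shared barcode had a median of 2046 UMIs and a mean Fst level of 1.92 UMIs per 10000, and the 95 others a median of 3069 UMIs and a mean Fst level of 2.44.

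The genes lie on 7 chromosomes in build GRCm38 with the GENCODE vM21 annotation, all annotated as protein coding. Fst is at chr13:114452290-114458951 and Nbl1 at chr4:139082284-139092993, both on the minus strand. Bmpr1a is at chr14:34410734-34503341, Bmpr1b at chr3:141837136-142169425 and Acvr1 at chr2:58388644-58567157, all on the minus strand, and Bmpr2 is at chr1:59763400-59879014 on the plus strand. Id1 is at chr2:152736251-152737410, Id3 at chr4:136143497-136145755 and Id4 at chr13:48261228-48266026 on the plus strand, and Id2 is at chr12:25093799-25097140 on the minus strand. Acvr1 overlaps 962 bases of the protein-coding gene Gm17409, and Fst, Bmpr1a and Id4 overlap antisense or long non-coding genes, all on the opposite strand. Bmpr2 alone overlaps a gene on its own strand, Gm38125, so its UMIs are less certain. Nbl1, Bmpr1b, Id1, Id2 and Id3 overlap no annotated gene. The effect of the overlaps on the UMIs was not tested.

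RefSeq promoter windows (GRCm38.p6) were found for 8 of the 10 genes, those other than Fst and Id1. Shown here are the 250 bases before the RefSeq start of Nbl1, the antagonist with a window, and of Id4, the Id gene whose window lies wholly outside the GENCODE span of its gene. The windows of Id2 and Id3 lie inside the GENCODE spans of their genes, which begin farther upstream, and are not printed. Of the Nbl1 window only the bases next to its start lie inside the span of its gene. Capitals mark GGCGCC, a palindromic motif bound by BMP-activated SMADs, and GTCT or its reverse complement AGAC, the short SMAD box, both searched on both strands. They do not overlap each other in these windows.
Nbl1, chr4:139092971-139093220, minus strand: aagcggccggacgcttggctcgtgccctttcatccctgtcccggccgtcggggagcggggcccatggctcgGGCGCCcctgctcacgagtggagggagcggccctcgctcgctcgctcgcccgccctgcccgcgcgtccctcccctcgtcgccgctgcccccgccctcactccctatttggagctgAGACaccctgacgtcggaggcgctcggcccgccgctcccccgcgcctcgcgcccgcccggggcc
Id4, chr13:48260866-48261115, plus strand: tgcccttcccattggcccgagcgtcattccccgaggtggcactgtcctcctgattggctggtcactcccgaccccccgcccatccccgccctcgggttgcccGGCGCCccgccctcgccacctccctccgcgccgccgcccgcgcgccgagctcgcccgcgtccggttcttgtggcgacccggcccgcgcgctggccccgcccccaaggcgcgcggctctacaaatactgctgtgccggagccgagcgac
The window of Nbl1 holds 1 GGCGCC and 1 AGAC, and that of Id4 holds 1 GGCGCC and 0 matches of the SMAD box. Of the windows not printed, that of Id2 holds 1 of each and that of Id3 holds 0 of the first and 2 of the second. GGCGCC was present for 5 of the 8 genes, Nbl1, Bmpr1a, Bmpr2, Id2 and Id4, against 9.59% of all 32851 windows, and the windows of these genes had a GC content of 62.8% to 78.8%, against a median of 52.4% over all windows. GTCT or AGAC was also present for 5 of the 8 genes, against 82.9% of all windows. These are matches of letters only.

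Fst, which encodes follistatin, a secreted protein that binds activins and some BMPs, was high in NA1a and NA2 and low in NA1b. In NA1a its level was 1.78, 1.53, 0.910, 3.33 and 3.29 UMIs per 10000 in replicates 1 to 5, and in NA1b it was 0.455, 0.511, 0, 0.223 and 0.344. Every mouse had more Fst in NA1a than in NA1b, and the ranges of the subtypes did not overlap. In NA1c the level was 0.975, 1.54, 0.539, 2.01 and 1.57, and in NA2 it was 3.22, 1.37, 1.24, 2.41 and 3.95. NA1b was thus the lowest of the subtypes with 5 mice, at 0.306 ± 0.204 UMIs per 10000 (SD, n = 5 mice), below 2.17 ± 1.09 in NA1a, 1.33 ± 0.574 in NA1c and 2.44 ± 1.17 in NA2. NA3 had 1.02, 0.508 and 1.21 in replicates 2, 4 and 5. In order of the mean, NA2, NA1a, NA1c and NA3 each differed from the next by less than the larger SD, and only the step from NA3 to NA1b exceeded it among these 5 subtypes. Without shared barcodes the NA2 level was 3.33 ± 2.09 (n = 4 mice).

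On the scale of log2(UMIs per 10000 + 0.1), Fst was 2.57 ± 0.92 higher in NA1a than in NA1b within mice (mean ± SD, higher in 5 of 5 mice), 1.94 ± 0.77 lower in NA1b than in NA1c and 2.75 ± 0.93 lower in NA1b than in NA2, or 3.27 ± 0.32 lower without shared barcodes (n = 4 mice). The size of these differences depends on the constant that is added, and the first was 1.22 with a constant of 1. With every neuron thinned to 2000 UMIs, and shallower neurons left out, the difference between NA1a and NA1b was 2.47 ± 0.66, but the ranges of the mice overlapped. NA1a neurons are deeper, with a median of 8181.5 UMIs in replicates 1 to 5 against 3338 in NA1b. Pooled over all neurons, Fst had 474 UMIs in 316 NA1a neurons and 30 UMIs in 311 NA1b neurons, which is 2.08 (95% exact Poisson interval 1.90 to 2.27) and 0.185 (0.124 to 0.263) per 10000 summed UMIs. The mice with no matched sample, outside the values per mouse though inside the clustering, had 1.39 (1.14 to 1.68) in NA1a and 0.156 (0.0573 to 0.340) in NA1b. These intervals cover counting error only.

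In the smaller subtypes, the pooled mean level of Fst was 1.38 UMIs per 10000 in 64 Ach1 neurons, 0.0926 in 62 Ach2 neurons and 0.814 in 37 Glut neurons. At least 1 UMI of Fst was found in 30.2% of all neurons, from 6.45% of Ach2 to 51.9% of NA1a, and in 28 of 311 NA1b neurons. The glia and other cells of the ganglion are not in the table used here. The share that free RNA gives in cells without the gene is therefore not known, and the lowest share, in Ach2 at a median of 4414.5 UMIs per neuron, serves only for comparison. The gene was unevenly spread: 51.5% of the neurons with Fst had 1 UMI, and the highest had 17.

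Nbl1, which encodes the DAN protein, another secreted BMP antagonist, was highest in NA1b and NA2 and lower in NA1a, NA1c and NA3. Replicates 1 to 5 had 6.88, 4.28, 7.51, 7.16 and 6.82 UMIs per 10000 in NA1b, and 3.94, 4.02, 3.61, 3.35 and 2.43 in NA1a. The lowest NA1b value, that of replicate 2, still lay above the highest NA1a value of these replicates. Pooled, the unmatched mice had a mean of 4.93 in NA1a, above that lowest NA1b value, and of 6.23 in NA1b. The separation is therefore stated for replicates 1 to 5 only. In NA1c the levels were 2.18, 2.31, 4.07, 2.71 and 2.65, and in NA2 they were 6.43, 6.46, 7.05, 5.90 and 3.98. NA3 had 1.60, 3.33 and 2.77 in replicates 2, 4 and 5, below every NA1b value. The means were 6.53 ± 1.29 in NA1b, 5.97 ± 1.18 in NA2, 3.47 ± 0.640 in NA1a, 2.78 ± 0.751 in NA1c (SD, n = 5 mice each) and 2.57 ± 0.880 in NA3 (n = 3 mice). NA1b and NA2, NA1a and NA1c, and NA1c and NA3 each differed by less than the larger of their SDs, while the step from NA2 to NA1a was larger than both SDs. Without shared barcodes NA2 had 5.74 ± 1.13 (n = 4 mice) and lay above NA1a and NA1c with no overlap, which it did not with all neurons.

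On the log2 scale, Nbl1 was 0.89 ± 0.51 lower in NA1a than in NA1b, lower in 5 of 5 mice, and 1.21 ± 0.33 higher in NA1b than in NA1c. After thinning, the difference of NA1a minus NA1b was -0.84 with an SD of 0.68 and the ranges overlapped, while NA1b stayed above NA1c in every mouse value. The unmatched mice had 6.69 UMIs of Nbl1 per 10000 summed UMIs in NA1b (5.90 to 7.56) and 5.18 in NA1a (4.69 to 5.72). The pooled mean was 3.85 in Ach1, 1.76 in Ach2 and 3.75 in Glut. Nbl1 was the most widely found of the 10 genes, with a UMI in 71.0% of all neurons and in 84.8% of NA1a, 76.8% of NA1b and 48.4% of Ach2.

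The antagonists thus had different patterns over the subtypes. NA1b was low in Fst and high in Nbl1, NA2 high in both, NA1a high in Fst and intermediate in Nbl1, and Ach2 low in both. Over the 26 profiles of a mouse and subtype, their log2 levels had a Pearson r of 0.06, where profiles of 1 mouse share a library. In single neurons, UMIs of both genes were found in 43.4% of NA1a, 24.6% of NA2, 22.6% of NA1c and 5.79% of NA1b, and neither in 6.65%, 14.3%, 35.1% and 19.9%. These shares also follow depth, since NA1a neurons hold the most UMIs of the 4.

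**Figure D1:**
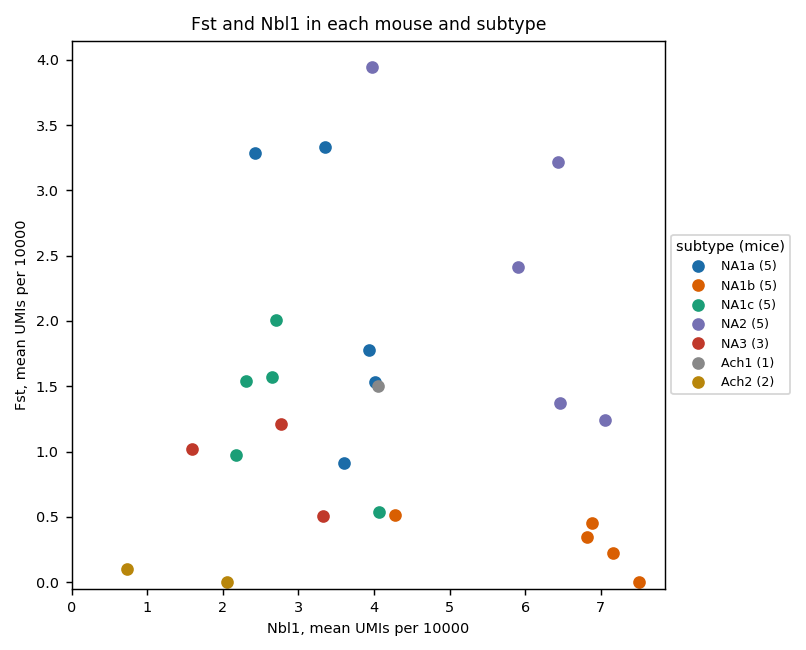
Mean level of Fst against mean level of Nbl1, both in UMIs per 10000, with 1 point for each mouse and subtype with at least 10 neurons. NA1b points lie at the lower right, with Fst of 0.511 or less, NA2 points at high Nbl1 with Fst of 1.24 to 3.95, and Ach2 points near the lower left corner.

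Bmpr2 was found in 34.6% of neurons and differed little between NA1a, NA1b, NA1c, NA2 and NA3. Each other receptor was found in fewer neurons. Bmpr2 encodes the type II receptor that is constitutively active and phosphorylates the type I receptors. Its pooled level ran from 0.636 UMIs per 10000 in Ach2 through 0.920 in NA1b, 0.961 in NA1a, 1.01 in NA2, 1.05 in NA3, 1.11 in NA1c and 1.43 in Ach1 to 2.14 in Glut. In NA1a, replicates 1 to 5 had 0.736, 0.497, 0.722, 1.43 and 2.09, a span that covers most of the range between subtypes. The means over mice were 1.09 ± 0.655 in NA1a, 1.11 ± 0.234 in NA1b, 1.06 ± 0.387 in NA1c, 0.906 ± 0.507 in NA2 (n = 5 mice each) and 1.12 ± 0.359 in NA3 (n = 3 mice), and no neighbours in that order differed beyond their spread. Without shared barcodes NA2 had 1.19 ± 0.716 (n = 4 mice). In Glut, 28 UMIs in 37 neurons gave 1.60 per 10000 summed UMIs (1.06 to 2.31), against 0.570 (0.343 to 0.890) in Ach2. These intervals cover counting error only, and no mouse had 10 Glut neurons.

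The type I receptors were each found in 12.4% of neurons or fewer. Bmpr1a had 0.498 ± 0.290 UMIs per 10000 in NA3 (n = 3 mice), 0.257 ± 0.167 in NA1a, 0.166 ± 0.127 in NA1b and 0.141 ± 0.171 in NA2 (n = 5 mice each), with NA1c between NA1a and NA1b, and its ranges overlapped between all these subtypes. Bmpr1b was found most in NA1b (0.338 ± 0.190), NA1c (0.270 ± 0.143) and NA1a (0.207 ± 0.112), and pooled it had 1 UMI in 64 Ach1 neurons and 1 in 37 Glut neurons. Within mice it was 1.55 ± 0.41 higher on the log2 scale in NA1b than in NA2 (5 of 5 mice, or 1.36 ± 0.44 without shared barcodes in 4 of 4) and 1.64 ± 0.29 lower in NA3 than in NA1b (3 of 3 mice), although the ranges overlapped. The size of both differences depends on the added constant of 0.1. Bmpr1b had 0 UMIs in NA2 of replicates 1, 2 and 3 and 1 in replicate 4, and in NA3 it had 1, 0 and 7 UMIs in replicates 2, 4 and 5. The step from NA1a to NA3 (0.0766 ± 0.111, n = 3 mice) was larger than both SDs. Bmpr1b had no UMI in the 62 Ach2 neurons. A floor of 3 counts would put the share of neurons with a UMI at up to 4.84%, which is no limit on the share that express the gene. Acvr1, which encodes the type I receptor ALK2, had means of 0.111 to 0.273 in the subtypes with values per mouse, with SDs of 0.0909 to 0.199. These 3 genes had 126 to 192 UMIs in the whole table. Pooled, Bmpr1a had 0.578 UMIs per 10000 summed UMIs in NA3 (95% exact Poisson interval 0.421 to 0.773) and 0.148 in NA1b (0.0946 to 0.220), intervals that did not overlap but cover counting error only, and NA3 was the higher in 2 of 3 mice. For Acvr1 no neighbours in the order of the means differed beyond their spread. Whether neurons have the type I proteins cannot be read from such counts.

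The Id genes fell into a gene found mostly in NA3 and Ach1, Id3, and 3 genes that were low everywhere. In NA3, Id3 had 8.30, 5.32 and 4.25 UMIs per 10000 in replicates 2, 4 and 5. In the 5 mice it had 0.147 to 0.428 in NA1a, 0.0493 to 0.344 in NA1b, 0 to 0.279 in NA1c and 0.0490 to 0.781 in NA2. NA3 thus lay above all 4 of these subtypes in every mouse, at 5.96 ± 2.10 (n = 3 mice) against 0.272 ± 0.115 in NA1a (n = 5 mice), and by 3.95 ± 0.93 on the log2 scale within mice. Pooled, Id3 was found in 71.7% of 99 NA3 neurons (95% Clopper-Pearson interval 61.8% to 80.3%), 42.2% of 64 Ach1 neurons (29.9% to 55.2%) and 5.41% to 19.6% of the neurons of the other 6 subtypes. After thinning to 2000 UMIs, the share in NA3 was 56.2% ± 9.19 over the 3 mice and 2.38% to 4.84% on average in NA1a, NA1b, NA1c and NA2. Replicates 1 and 3 had fewer than 10 NA3 neurons, and 55 of the 64 Ach1 neurons come from replicate 4.

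NA3 and Ach1 also held RNA of glial genes. The summed level of 10 satellite glia genes, among them Fabp7, Apoe, Sparc and Sox10, was 266.5 UMIs per 10000 in NA3 and 109.9 in Ach1, against 4.10 to 14.4 in the other 6 subtypes. All 10 were found in NA3, and over its mice the sum was 346.4, 187.5 and 233.4 in replicates 2, 4 and 5. Replicate 2 had the highest sum and the highest Id3, while replicate 5 had a higher sum than replicate 4 and less Id3. The 8 fibroblast genes summed to 22.3 in NA3 and 52.4 in Ach1, against 0.847 to 2.61 elsewhere. Among the 99 NA3 neurons, Id3 was 3.10 UMIs per 10000 in the 33 with the lowest glial sum (mean 66.7), 5.13 in the middle 33 (257.6) and 9.80 in the highest 33 (475.0). Median depth followed the same order, at 4174, 7978 and 11051 UMIs. Id3 UMIs per 100 UMIs of the glial genes were 2.29 in NA3, 2.41 in Ach1, 2.19 in NA1c, 3.43 in NA1b, 5.57 in NA1a and 9.55 in NA2. In Ach1, Id3 did not follow the glial sum, at 1.71, 4.18 and 1.17 in the 22, 21 and 21 neurons with sums of 65.4, 114.9 and 151.6 and median depths of 2350, 2340 and 2072 UMIs. The part of glial RNA in the Id3 level of NA3 was not tested. In the 3 groups of NA3 neurons, Fst was 0.971, 1.02 and 0.517 and Nbl1 4.43, 1.35 and 2.10, so neither followed the order of Id3.

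**Figure D2:**
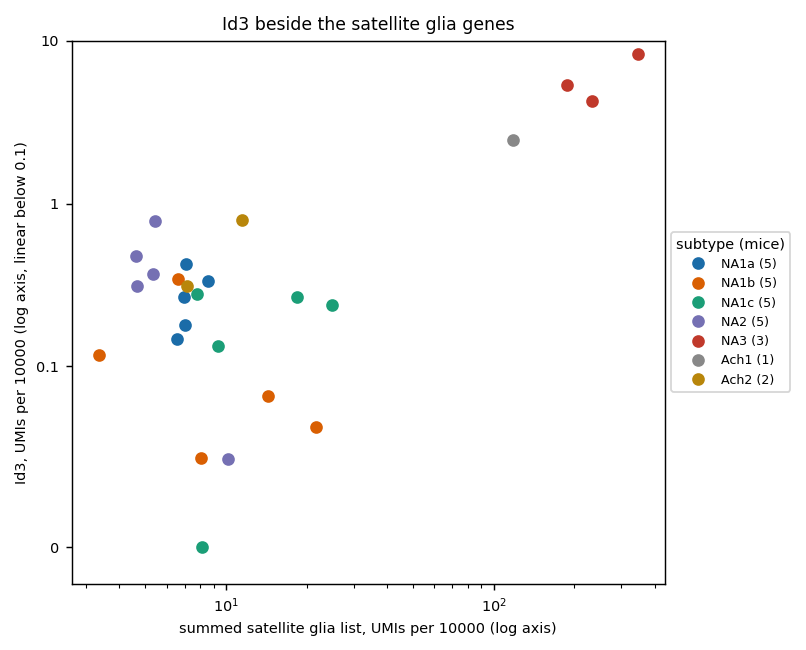
Level of Id3 against the summed level of the satellite glia genes, both in UMIs per 10000 on log axes (the Id3 axis is linear below 0.1), with 1 point for each mouse and subtype. The NA3 and Ach1 points lie at the upper right, with glial sums of 118.0 or more and Id3 of 2.46 or more, and all other points have glial sums of 24.9 or less and Id3 below 1.

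Among the subtypes with values per mouse, Id2 was highest in NA1a. Pooled over neurons, the mean was 0.380 UMIs per 10000 in Glut, from 4 UMIs, beside 0.326 in NA1a, while per 10000 summed UMIs Glut had 0.228 (95% exact Poisson interval 0.0622 to 0.585) and NA1a 0.355 (0.282 to 0.442). Replicates 1 to 5 had 0.376, 0.468, 0.283, 0.445 and 0.321 UMIs per 10000 in NA1a, and 0.121, 0.135, 0, 0.0336 and 0.139 in NA1c. The ranges did not overlap, and within mice NA1a was 1.43 ± 0.53 higher on the log2 scale, or 0.34 ± 0.10 with a constant of 1. After thinning the ranges overlapped. These levels rest on few molecules, 81 UMIs in 316 NA1a neurons and 15 in 239 NA1c neurons over the whole table. NA1b had 0.167 ± 0.138 and NA2 0.218 ± 0.176, ranges that overlapped with that of NA1a. Id1 was below 0.5 in every mouse and subtype with a value, and its highest pooled level was 0.702 in Ach2, with 20 UMIs in 62 neurons, or 0.600 per 10000 summed UMIs (0.366 to 0.926). Id1 had no UMI in the 37 Glut neurons, for which a floor of 3 counts gives a share of neurons with a UMI of up to 8.11%, again with no limit on the share that express the gene. Id4, with 56 UMIs in all, had its highest mean in NA3 (0.205 ± 0.0915, n = 3 mice) against 0.0192 to 0.0771 in NA1a, NA1b, NA1c and NA2, and most neurons with Id4, 92.3%, had 1 UMI.

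**Figure D3:**
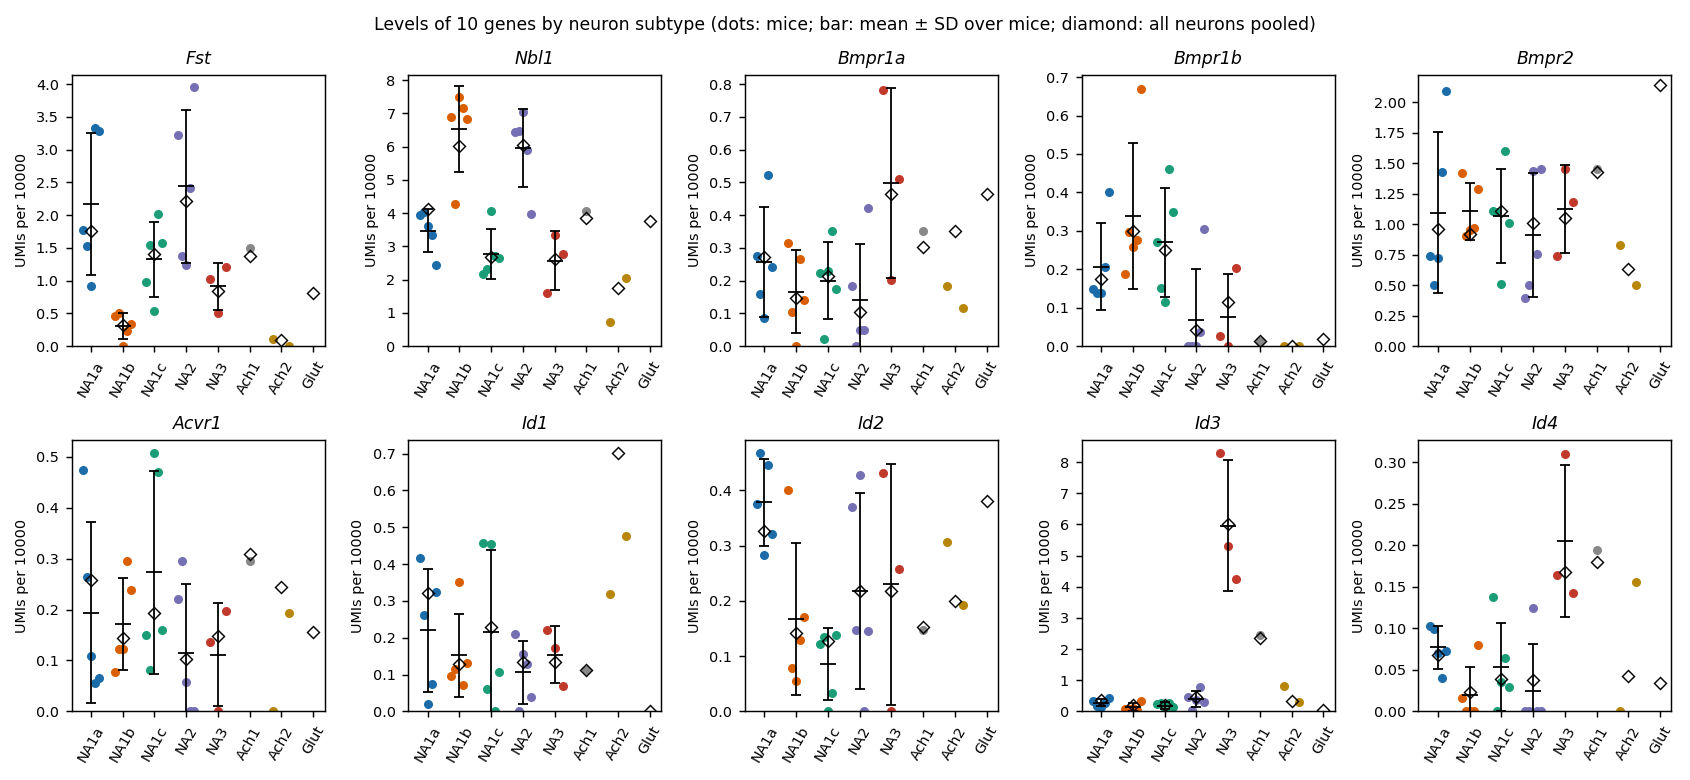
Levels of the 10 genes in UMIs per 10000 by subtype, with 1 panel for each gene on its own axis. Dots are mice, bars are the mean ± SD where there are 3 or more mice, and open diamonds are all neurons pooled. Fst is lowest in NA1b among the subtypes with 5 mice, Nbl1 is highest in NA1b and NA2, and Id3 is at 4.25 or more in the 3 NA3 dots.

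Counts of members whose mice did not overlap between subtypes were set beside the same count over all genes with a mean of at least 0.2 UMIs per 10000. Both counts use replicates 1 to 5 only. Between NA1a and NA1b, 2 of 7 members did not overlap, Fst higher and Nbl1 lower in NA1a, against 6.31% of 7199 genes. Between NA1a and NA1c, 1 of 9 members did not overlap, Id2, against 6.18%. Between NA1b and NA1c, 2 of 5 members did not overlap, Nbl1 higher and Fst lower in NA1b, against 2.57%. NA2 stood further from the rest, and the share over all genes was 26.8% with NA1a, 31.0% with NA1b and 30.6% with NA1c. There, 0 of 5, 1 of 5 (Fst, lower in NA1b) and 0 of 4 members did not overlap. Between NA3 and NA1a, NA1b, NA1c and NA2, the shares were 23.4%, 24.5%, 23.7% and 27.6%, and the members that did not overlap were Id3, Id3 and Nbl1, Id3, and Id3, Fst and Nbl1, of 6 in each case. Without shared barcodes Fst in NA3 overlapped with NA2, and Nbl1 in NA1a and in NA1c stood apart from NA2. After thinning, neither Fst nor Nbl1 stood apart between NA1a and NA1b, nor Id2 between NA1a and NA1c. Since the members were chosen for their pattern over subtypes, nothing is read from these counts against the shares.

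The other genes of the pathway were mostly found at low levels. Of 72 genes listed as ligands, antagonists, co-receptors, receptors, SMADs, targets and Id partners, 64 are in the table. No BMP ligand reached a mean of 0.5 UMIs per 10000 over all neurons, and the highest were Bmp3 (0.268), which was 1.03 in Ach2, Gdf11 (0.0905), Bmp4 (0.0697) and Bmp2 (0.0422). Inha, which encodes the inhibin alpha subunit, had 0.297. Of the other antagonists, Fstl5 (0.837), Sostdc1 (0.455), Fstl1 (0.312) and Twsg1 (0.174) were the highest. Sostdc1, a secreted inhibitor of BMP and Wnt signals, was 3.66 in NA3 and 1.58 in Ach1 and at most 0.180 elsewhere, and in NA3 it was 0.902, 4.34 and 5.75 over the 3 groups of glial sum, against 1.17, 2.86 and 0.718 in Ach1. Nog, which encodes noggin, and Chrd, which encodes chordin, each had 4 UMIs in all neurons and are named after their values were seen.

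Among the co-receptors, Rgmb, a membrane protein that strengthens BMP signalling, had 0.790, Neo1 0.270, Tgfbr3 0.115 and Eng 0.0464. Of the activin and TGF-beta receptors, Acvr2b had 0.345, Acvr2a 0.222, Acvr1b 0.216 and Tgfbr1 0.175. Of the SMADs, Smad1, which carries the BMP signal, had 0.607, the common partner Smad4 0.463, Smad2 0.301 and the ubiquitin ligase Smurf1 0.231. Among the other listed targets, Ski had 0.443, Skil 0.344, Zfp423 0.145 and Hey1 0.101. Among the basic helix-loop-helix factors, Hand2, which maintains the noradrenergic programme, had 5.63, Tcf4, an E protein that Id proteins bind, 4.43, Hand1 1.06 and Tcf12 0.409. Tcf4 ran from 1.40 in NA2 to 7.00 in NA1a, and in NA1b it was 3.76.

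Over all these lists, the genes without overlap were 2 of 23 tested between NA1a and NA1b, Acvr2a and Tcf4, both higher in NA1a, beside 6.31% of all genes. They were 1 of 24 between NA1a and NA1c, Hand2, higher in NA1a (6.18% of all genes), and 3 of 18 between NA1b and NA1c, Smad7, Skil and Tcf4, all lower in NA1b (2.57%). The counts with NA2 were 3 of 17 for NA1a, 4 of 14 for NA1b and 6 of 17 for NA1c, all lower in NA2, with Tcf4 and Tcf12 among them each time, beside 26.8%, 31.0% and 30.6% of all genes. The medians of all genes tested were also lower in NA2, by 0.156 to 0.218 on the log2 scale. NA3 had 4 higher and 4 lower of 26 tested against NA1a, 4 and 2 of 23 against NA1b, 3 and 4 of 27 against NA1c and 7 and 2 of 17 against NA2, beside 23.4%, 24.5%, 23.7% and 27.6% of all genes, with Sostdc1, Tgfbr3 and the decoy receptor gene Bambi higher each time.

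The genes with the most similar pattern were found by Pearson's correlation of log2(level + 0.1) over the 26 profiles, among 7230 genes, for the 5 members that reached 0.5 UMIs per 10000 in a pooled subtype. The profiles share libraries, depth and subtypes, and the values are a description. For Fst they were Npy (r = 0.811), the gene of neuropeptide Y, the dopamine receptor gene Drd2 (0.768) and the cyclin gene Ccnd1 (0.754). For Nbl1 they were Tesc (0.811), Cyp2j12 (0.795) and Stk32a (0.784). For Id3 they were Myl12a (0.897), the immediate early gene Fos (0.892) and the prion protein gene Prnp (0.878). Genes close to Bmpr2, Hyou1 (0.652) and Nfe2l1 (0.637), and to Id1, Sar1a (0.629), Mboat7 (0.580) and Ret (0.576), followed them less closely.

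The study divides stellate neurons by their level of Npy, a co-transmitter of sympathetic neurons, into the bottom 30%, the middle and the top 30%. It looked for genes associated with Npy in NA1a, NA1b and NA3, and for the paw also in NA1c. The split used here is another one, at the median inside each label, with NA2 and without NA3. To ask which members differ between neurons with more and less Npy inside a subtype label, the neurons of each mouse and subtype were divided at the median of Npy. This contrast does not compare the labelled subtypes with each other. Npy was, however, the gene most similar to Fst over the profiles of mice and subtypes (r = 0.811), and mixing of subtypes inside a label was not tested. The contrast may therefore not be independent of the subtype pattern that was known when the members were chosen. The differences between neurons with more and less Npy were averaged over NA1a, NA1b, NA1c and NA2 within a mouse. They were tested over the 5 mice across 7079 genes with limma. SEs and p-values of the splits use variances that limma moderates across genes. Of these genes 17 were called at a Benjamini-Hochberg adjusted p below 0.05, which is 0.240%, 10 higher and 7 lower in neurons with more Npy. Of 6 members tested, 1 was called, Fst. It was higher by 1.30 (SE 0.20) on the log2 scale in neurons with more Npy, in 5 of 5 mice, with an adjusted p of 4.84e-05 by limma. Nbl1 was lower by 0.50 in 5 of 5 mice (log2 difference -0.50, SE 0.12) with an adjusted p of 0.0587 by limma, on the other side of the threshold, and it was called with a constant of 1 (adjusted p = 0.00784) or a filter at 0.5 UMIs per 10000 (0.0205), but not without shared barcodes (0.142), without the block of mice (0.582), after thinning (0.613), with no filter (0.71) or without any 1 mouse (0.101 to 0.413).

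The difference of Fst was largest in NA2. There, neurons with more Npy had 5.86, 2.75, 2.25, 4.18 and 7.57 UMIs of Fst per 10000 in replicates 1 to 5, and those with less had 0.771, 0, 0.266, 0.721 and 0.742. Every value of the first set was above every value of the second. For Nbl1 the same neurons had 3.16, 5.42, 4.77, 4.01 and 2.28 with more Npy and 9.48, 7.51, 9.24, 7.70 and 5.49 with less, lower with more Npy in each mouse. In a fit of NA2 alone, Fst differed by 3.17 (SE 0.45, adjusted p = 4.48e-05 by limma) and Nbl1 by -1.02 (SE 0.25, adjusted p = 0.0533). In NA1a, Fst differed by 0.57 and was higher in 4 of 5 mice, in NA1c by 0.91 in 4 of 5, and in NA1b by 0.56 with 2 mice in each direction and replicate 3 at 0 in both. None of the 3 was called alone (adjusted p = 0.457, 0.695 and 0.910), nor their average (0.68, SE 0.21, adjusted p = 0.337). The difference of the effect between NA2 and that average was 2.49 for Fst (SE 0.55, larger in NA2 in 5 of 5 mice, unadjusted p = 0.000326 and adjusted p = 0.289 by limma over 7079 genes, of which 2 or 0.0283% were called), so it did not pass the threshold. The contrast in Npy itself was unequal between subtypes. In replicate 1 the mean Npy level was 89.1 and 10.6 UMIs per 10000 in NA2 neurons with more and less Npy. It was 115.6 and 39.5 in NA1a, 14.1 and 2.69 in NA1b, and 65.7 and 23.2 in NA1c. The Fst differences were not scaled to these, so the subtypes are compared at unlike contrasts.

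Without the neurons of shared barcodes, the Fst difference over the 4 subtypes was 0.87 (SE 0.20), still higher in 5 of 5 mice, with an adjusted p of 0.0777, and in NA2 alone 1.67 (SE 0.45) in 4 of 4 mice with an adjusted p of 0.322 by limma, so the call was not kept without these neurons. It was also lost after thinning to 2000 UMIs (0.82, adjusted p = 0.577). In NA2 the median over mice of the median depth was 2154 UMIs in neurons with more Npy against 2513 in those with less. The mice differed, and neurons with more Npy were deeper in replicates 3 (2430.5 against 2315) and 5 (6638 against 4864). They were less deep in replicates 1, 2 and 4. In NA1b the median over mice was 3536.5 against 7135.5 and in NA1a 9365.5 against 7149. The other members tested, Bmpr1b (-0.24), Bmpr2 (-0.06), Id2 (0.08) and Id3 (0.00), had adjusted p of 0.883 to 0.999, with SEs of 0.20 to 0.26. Among the 18 genes of the pathway lists that were tested 0 were called by limma and 4 had an unadjusted p below 0.05, as 537 of all 7079 genes did, with a median of -0.24 against -0.02 over all genes. The called genes with the largest differences were Pcp4 (1.58), the secretin receptor gene Sctr (1.33) and Fst among those higher with more Npy, and Cyp2j12 (-1.52), the LIF receptor gene Lifr (-1.33) and Tmem176a (-1.28) among those lower.

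**Figure D4:**
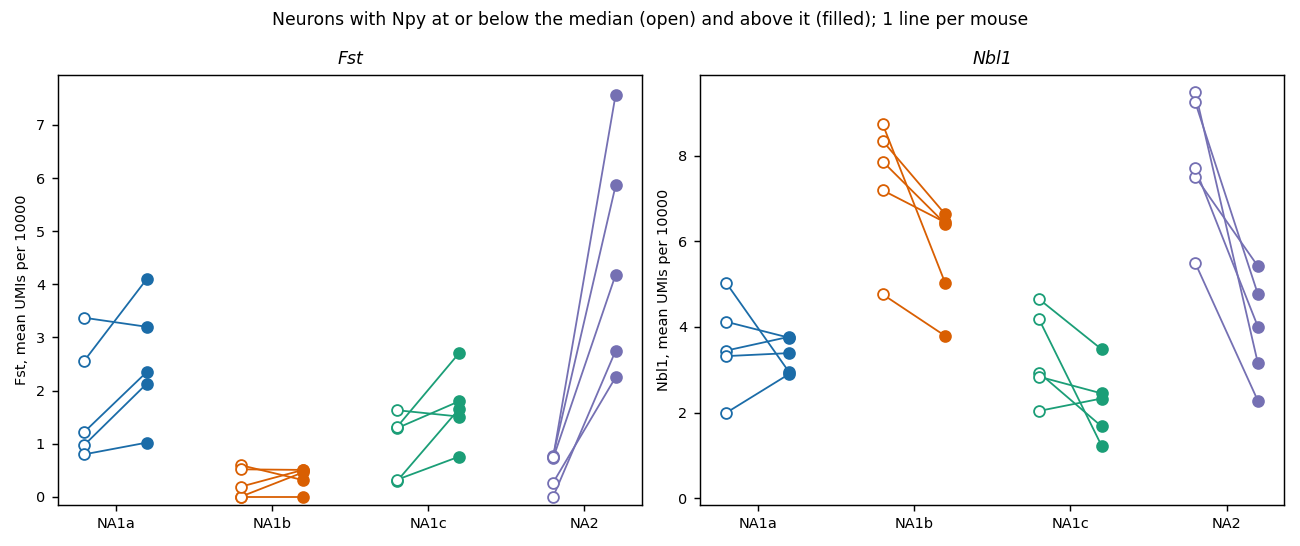
Mean levels of Fst and Nbl1 in UMIs per 10000 in neurons with Npy at or below the median of their mouse and subtype (open) and above it (filled), with a line for each mouse. In NA2 all 5 lines rise for Fst, from 0.771 or less to 2.25 or more, and all 5 fall for Nbl1.

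In the same way, neurons were divided at the median of the summed satellite glia genes, which asks whether a member moves with glial RNA inside NA1a, NA1b, NA1c and NA2. Of 7075 genes 25 were called by limma at an adjusted p below 0.05, or 0.353%, 20 higher and 5 lower in neurons with more glial RNA, and 0 of the 6 members tested were called, nor did any of them have an unadjusted p below 0.05. The number of all genes at an unadjusted p below 0.05 was 517, and 1 gene was called when the mouse was left out of the model. Id3 differed by -0.14 (SE 0.28, adjusted p = 0.954 by limma), Fst by -0.04 (SE 0.20), Nbl1 by 0.03 (SE 0.13), Bmpr2 by 0.10 (SE 0.21), Id2 by 0.04 (SE 0.28) and Bmpr1b by -0.31 (SE 0.28). Depth differed as well, and the median over mice of the median depth in NA1b was 3266 UMIs with more glial RNA against 8759 with less. It was 7865 against 8769.5 in NA1a, 2699 against 3296.5 in NA1c and 2236 against 2364 in NA2. Glial RNA and depth are therefore not fully separated in this split. After thinning to 2000 UMIs, Id3 differed by -0.06 (SE 0.42). Within these 4 subtypes, where the glial sum stays low, Id3 was thus not found to move with it, though its level there is near that of few UMIs. A marker of other cells did, since the fibroblast gene Dcn was called higher (0.94, SE 0.23, adjusted p = 0.0258 by limma). Among the largest called differences were Gm26870 (1.44) and Apod (1.27), higher with more glial RNA, and Ulk1 (-1.21), Bmyc (-0.77) and Malat1 (-0.46), lower. Among the 18 pathway genes tested 0 were called and 0 had an unadjusted p below 0.05, with a median of -0.13 against -0.07 over all genes.

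**Figure D5:**
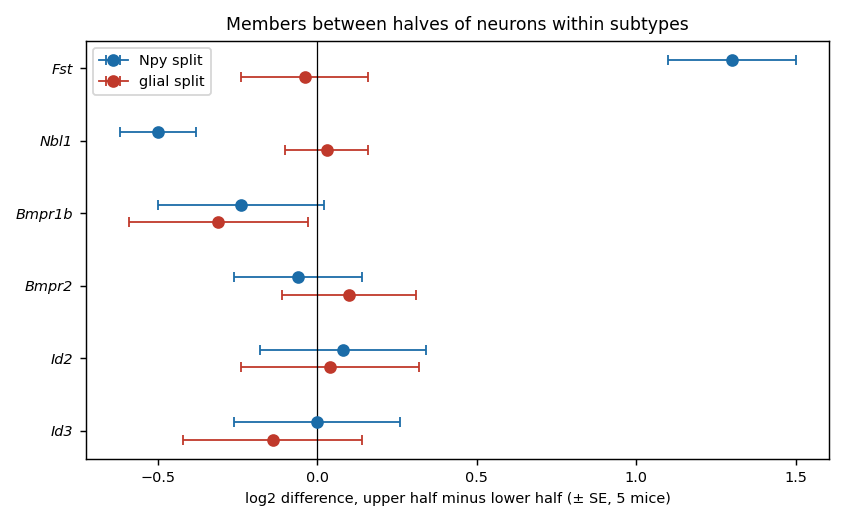
Log2 difference of the 6 members tested between neurons above and at or below the median of Npy (blue) or of the summed satellite glia genes (red), averaged over NA1a, NA1b, NA1c and NA2, with bars of ± SE from limma. The SE is moderated across genes and is not the plain spread over the 5 mice. Fst in the Npy division, at 1.30, is the point farthest from 0, and in the glial division every member lies between -0.31 and 0.10.

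Neurons with a UMI of a reporter were few, and their values are counts from pooled mice with no test. The 6 neurons with GFP, the label given in the heart, held 4 UMIs of Fst and 13 of Nbl1, which is 0.953 (95% exact Poisson interval 0.260 to 2.44) and 3.10 (1.65 to 5.30) per 10000 summed UMIs. Unlabelled neurons of the same subtypes had 1.22 and 4.85, both inside these intervals. The 20 neurons with tdTomato, the label given in the paws, had 0.616 (0.226 to 1.34) for Fst and 3.29 (2.25 to 4.64) for Nbl1, against 1.32 and 4.51. Both reference values again lie inside the intervals. Of Id3 they held 45 UMIs, or 4.62 (3.37 to 6.19) against 1.25, but all 45 lay in 3 neurons, so counting error understates the uncertainty. With so few labelled neurons, no difference of Fst or Nbl1 could be detected by counting error alone.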

How the data were processed

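Single-cell RNA of stellate ganglia of 8 mice was measured with the 10x Genomics system. The authors aligned reads with Cell Ranger 2.1.1, per the submitters' processing notes to mm10, set limits of 500 and 6000 detected genes, 20000 UMIs and 15% mitochondrial RNA, and clustered the neurons with Seurat. Each deposited value is a natural log, taken by the authors of UMIs per 10000 with 1 added. The value of 1 UMI in each neuron gave back the UMIs, and 100.0% of nonzero values came out whole within 0.01. No removal of doublets is named in the methods, and none was applied here, so doublets may remain in every subtype.

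The members and gene lists were chosen with earlier results of these data known. Named are all members, of each pathway list up to 4 genes with the highest mean, the 3 most similar genes of each member that reached 0.5, and in each split up to 3 called genes per direction, of which some are not reported here. No count model was used on these log values. Splits were fitted with limma 3.58.1 in R 4.3.3 on log2(mean UMIs per 10000 + 0.1), 1 difference per mouse, with an intensity trend and Benjamini-Hochberg adjustment, two-sided, for genes with a mean of at least 0.2. Variances were moderated across genes by empirical Bayes, so an SE of a split is not the plain spread over mice. A split needed 10 neurons per mouse and subtype and 5 on each side. The steps were tested on simulated data. Python 3.11.15, NumPy 2.4.6, pandas 2.3.3, SciPy 1.17.1 and matplotlib 3.10.9 were used. Alternatives covered the constant, the filter, thinning to 2000 UMIs, summed UMIs, averaged log values, the minimum number of neurons, the deepest 10% of neurons, centring, the replicate block and leaving out each mouse. Those on shared barcodes, on NA2 apart from the NA1 subtypes and on their difference were added after the data were seen. The marker lists of Schwann cells, endothelial cells, immune cells and smooth muscle summed in pooled subtypes to 1.96 to 15.2, 0.449 to 2.48, 0.387 to 10.2 and 0.0798 to 0.960 UMIs per 10000, and every highest value was in NA3 or Ach1. Mice of batch 1 were not assigned sample by sample and were not compared with batch 2.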

Additional observations from a re-analysis of the deposited data

Results flagged for a closer look

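In 40 groups of 5 mice (10 genes in NA1a, NA1b, NA1c and NA2), the highest or lowest mouse lay far from the others by Dixon's criterion in 9. The criterion flags about 1 in 20 groups of normally distributed values. Many levels here are near 0 and some are tied at 0, so no excess is read from this count. Most of the flagged groups rest on few UMIs, and no explanation was tested. Nbl1 was 4.28 UMIs per 10000 in NA1b of replicate 2, against 6.82 to 7.51 in the other mice, and 4.07 in NA1c of replicate 3, against 2.18 to 2.71. Bmpr1b was highest in replicate 5 in 3 subtypes: 0.401 in NA1a (others 0.139 to 0.207), 0.670 in NA1b (0.188 to 0.296) and 0.304 in NA2 (0 to 0.0361). In NA2 these were 6 UMIs in 17 neurons, against 1 UMI in 43 neurons of replicate 4 and 0 in replicates 1, 2 and 3, and in NA1c replicate 4 was higher than replicate 5 (0.462 and 0.349). In NA1b, replicate 5 was also highest for Id3 (0.344, others 0.0493 to 0.118) and Id4 (0.0802, others 0 to 0.0157), and replicate 3 for Id1 (0.350, others 0.0708 to 0.130). Id4 in NA2 was found in replicate 3 alone (0.125, others 0).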

How the results depend on the processing

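The direction of each difference between subtypes described for Fst, Nbl1, Id2 and Id3 was kept under all alternatives run for it. A constant of 1 in place of 0.1 lowered the Fst difference of NA1a and NA1b from 2.57 to 1.22 and the Id3 difference of NA3 and NA1a from 3.95 to 2.39. Leaving out each mouse gave 2.36 to 2.86 for the first, -1.09 to -0.75 for Nbl1 between NA1a and NA1b, and 3.47 to 4.40 for Id3. Genes without overlap fell after thinning to 269 of 7137 between NA1a and NA1b, 270 of 7126 between NA1a and NA1c and 1113 of 7389 between NA3 and NA1a, and with a filter at 0.5, which tests fewer genes, to 116 between NA1b and NA1c, 1061 between NA3 and NA1a and 1173 between NA3 and NA1b. In the Npy split, 17 genes were called, 9 to 14 without each mouse in turn (9 without replicate 1, 11 without replicate 4 and 11 without replicate 5), 33 with the bottom 30% against the top 30%, 28 with a constant of 1, 10 without shared barcodes, 2 after thinning and 0 with no filter, which tests 16490 genes, 965 of them at an unadjusted p below 0.05. By subtype the counts were 7 in NA1a, 0 in NA1b (439 at an unadjusted p below 0.05), 1 in NA1c, 3 over these together and 5 in NA2 without shared barcodes. Fst kept its call without each mouse (1.22 to 1.37), and lost it with no filter (1.30, adjusted p = 0.0646 by limma), after thinning (0.82), without shared barcodes (0.87), and in NA1a (0.57), NA1b (0.56), NA1c (0.91), their average (0.68) and NA2 without shared barcodes (1.67). Nbl1 became called with a filter at 0.5 (-0.50) and a constant of 1 (-0.42), and ranged from -0.56 to -0.45 without each mouse (adjusted p = 0.101 to 0.413), with an adjusted p by limma of 0.142 without shared barcodes, 0.582 without the block, 0.613 after thinning and 0.71 with no filter. In the glial split, 25 genes were called, 17 to 31 without each mouse, 38 with the 30% tails, 9 with no filter, 6 after thinning, 2 in NA1a, 4 in NA1b, 8 in NA1c, 3 in NA2 and 0 in NA2 without shared barcodes (270 at an unadjusted p below 0.05). The pairing comes from the design, since both sides of a split are neurons of 1 mouse. With no replicate block, 9 genes were called in the Npy split, Fst still among them (adjusted p = 0.0181), and 1 in the glial split. The cause of these changes was not tested. For genes such as Bmpr1b, Id1 and Id4, depth limits what can be seen.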
